A study of Mus musculus with 5 samples.

Results

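The genes described here carry nucleosides and nucleoside drugs into pancreatic cells and handle them there. They are the concentrative transporters Slc28a1, Slc28a2 and Slc28a3, the equilibrative transporters Slc29a1, Slc29a2 and Slc29a3, the activating kinase Dck, the deaminase Cda and the ribonucleotide reductase subunits Rrm1 and Rrm2, 10 of the 19938 genes measured. The set was chosen by the low signal of Slc28a3 in tumour cultures of these same arrays and was filled up by function, so the differences between groups are given for its members as a description, without a test. Each of the 10 genes had exactly 1 probe set with a single gene symbol, and none was lost to a filter.

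RNA from 5 mouse pancreatic cell cultures was measured on Affymetrix whole-transcript arrays, and the values are log2 signals, so a difference of 1 is a doubling. By their titles, the 2 normal ductal cultures had the p53L/L alleles, and replicate 1 had the Pdx-1Cre transgene with them. The promoter of that transgene drives Cre in pancreatic progenitors and the cells that descend from them. The 3 cultures of pancreatic ductal adenocarcinoma (PDAC) cells carried the Pdx-1Cre transgene and the p53L/L alleles together with the allele pair APCL/+. By their titles both groups thus shared the p53L/L alleles, and neither is labelled as wild type for p53. The titles do not say in which cultures Cre had acted on these alleles, and for normal ductal replicate 2 they name no Cre. Whether p53 status was the same in both groups is therefore not known. The title of normal ductal replicate 2 leaves out Cre and the word ductal, and that of PDAC replicate 3 adds the words mutant cell. Cells were primary cultures in medium with serum, kept for few passages. No drug is named in the labels, so no response to a drug can be read from these arrays. The labels speak of biological replicates and name no animals, so p-values measure only the spread between these cultures, and their small number limits the precision of every value.

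Nucleosides are too polar to cross a cell membrane unaided. Slc28 proteins bring them in together with sodium, against a gradient, while Slc29 proteins let them move down their gradient in either direction. Gemcitabine, a deoxycytidine analogue and a standard drug for pancreatic cancer, is carried by some of these proteins. Deoxycytidine kinase (Dck) adds its first phosphate, and cytidine deaminase (Cda) inactivates it. Ribonucleotide reductase, made of a large subunit (Rrm1) and a small one (Rrm2), is one of its targets. The reductase also makes the deoxynucleotides that compete with gemcitabine.

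Array medians lay between 5.90 and 6.02. The signals of 1027 olfactory receptor genes served as a guide to the low end of the scale, with a median between 3.28 and 3.30 and a 95th percentile between 5.05 and 5.24 on the 5 arrays. The labelled cell type was compared with marker lists. The mean of 15 epithelial markers was 10.82 and 10.49 in normal ductal replicates 1 and 2, against 6.27, 6.93 and 8.35 for PDAC replicates 1, 2 and 3. The mean of 11 duct markers was 7.81 and 7.54 on the normal ductal arrays and 6.11, 7.08 and 7.58 on those of PDAC replicates 1, 2 and 3, the last within the normal ductal range. The list was mixed: 4 of the 11 were lower on all PDAC arrays and 1 was higher on all of them, against 12.8% and 13.6% of all genes. The duct keratin Krt19, a member of both lists, had 11.46 and 11.37 on the normal ductal arrays. It stood at 6.47, 9.50 and 11.74 in PDAC replicates 1, 2 and 3, so it overlapped between the groups. In contrast, 13 of the 15 epithelial markers were lower on all PDAC arrays than on both normal ductal ones, against 12.8% of all genes. Normal ductal replicate 2 also held more signal of other cell types than replicate 1. There, 11 of 12 fibroblast, 4 of 10 acinar, 5 of 10 islet, 5 of 10 endothelial and 2 of 9 leukocyte markers lay more than 1 above replicate 1. The mean of the 12 fibroblast markers was 7.29 and 10.02 in normal ductal replicates 1 and 2. It was 9.24, 9.12 and 8.91 in PDAC replicates 1, 2 and 3, all above normal ductal replicate 1. The islet, endothelial and leukocyte means were lower in all PDAC cultures than in either normal ductal one. For leukocytes normal ductal replicate 1 (6.07) and PDAC replicate 1 (5.95) were close, and the list was mixed. Of its 9 markers, 5 were lower on all PDAC arrays and 0 higher on all, against 12.8% and 13.6% of all genes. Cd14 had 9.52 and 9.43 on the normal ductal arrays against 5.82, 6.35 and 7.92 on the PDAC arrays, while Fcer1g was highest in PDAC replicate 1 (9.74). The acinar mean was 5.34 and 6.84 in the normal ductal cultures and between 5.30 and 5.43 in the PDAC cultures. In a culture, fewer cells of a type and less RNA per cell cannot be told apart.

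Of the 10 genes, 4 had all 3 PDAC signals above both normal ductal ones (Slc29a1, Dck, Rrm1 and Rrm2) and 3 had all of them below (Slc28a3, Slc29a3 and Cda). Over all 19938 genes, 13.6% were separated in this way with PDAC higher and 12.8% with PDAC lower. Since the set was chosen with this contrast known, nothing is read from these counts. The remaining 3 genes, Slc28a1, Slc28a2 and Slc29a2, overlapped between groups. The median difference of the 10 genes was -0.06, and that of all genes 0.01.

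**Figure D1:**
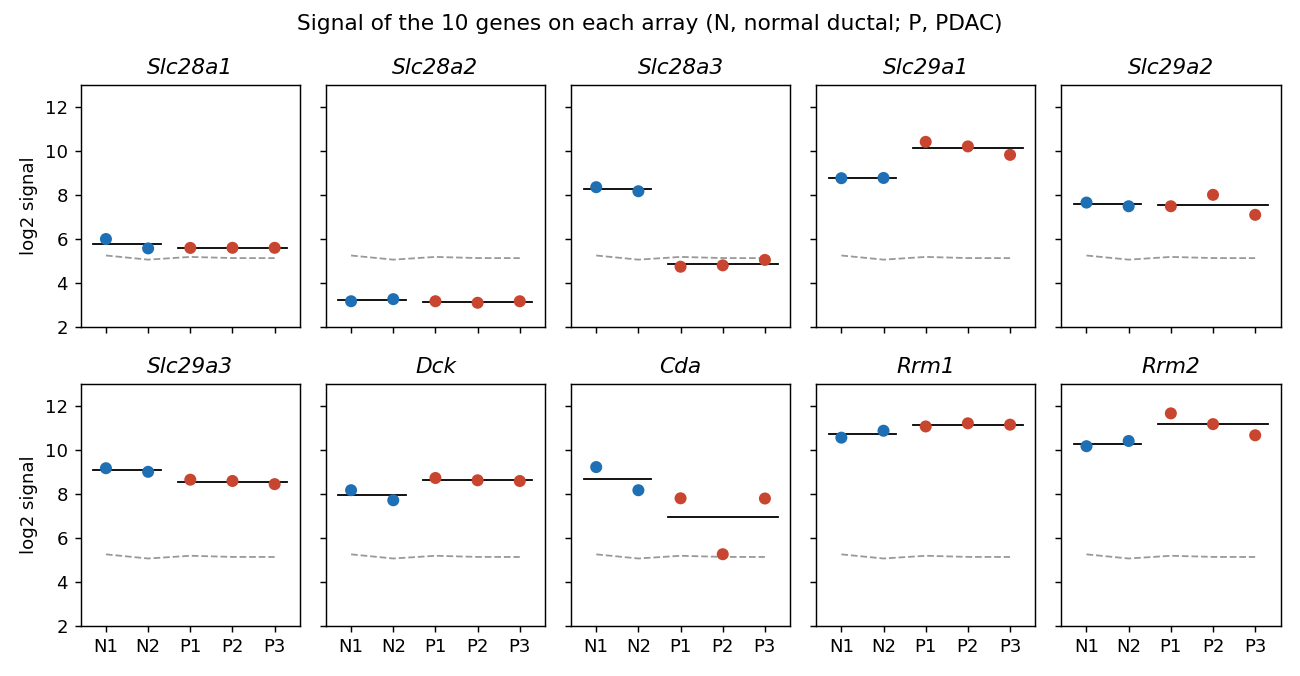
Log2 signal of each gene (vertical axis) on the 5 arrays (horizontal axis; N1 and N2 normal ductal, blue; P1 to P3 PDAC, red), with black lines at the group means and a dashed line at the 95th percentile of olfactory receptor genes on each array. Slc28a3 is at 8.35 and 8.17 in N1 and N2 and at 5.04 or less in P1 to P3, Slc29a1 lies above 9.8 in the 3 PDAC cultures, and Cda is lowest in P2.

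Slc28a3 encodes the concentrative transporter with the broadest substrate range of its family, taking both purine and pyrimidine nucleosides. Its signal was 8.35 and 8.17 in normal ductal replicates 1 and 2, against 4.73, 4.80 and 5.04 for PDAC replicates 1, 2 and 3. The PDAC signals all lay below the 95th percentile of the olfactory receptor genes on the same array (5.18, 5.13 and 5.12), so they were at the low end of the scale. The group means were 8.26 ± 0.13 (SD, n = 2) and 4.86 ± 0.16 (SD, n = 3), a measured difference of -3.40 (SE 0.13). With the 95th percentile of the olfactory receptor genes put in for the lower PDAC signals, the normal ductal signal was at least 8.66-fold higher. A gap of 3.12 parted the nearest arrays of the groups, against ranges of 0.18 within the normal ductal and 0.31 within the PDAC cultures. The measured difference stayed between -3.49 and -3.31 under the 9 alternatives computed for it.

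The gene is annotated as protein coding on chromosome 13 from 58553307 to 58610877 in GRCm38. Its promoter is shown with those of Rrm1 (chromosome 7, 102441695 to 102469771) and Rrm2 (chromosome 12, 24708254 to 24714146), because these are the transporter with the largest difference and the pair of enzyme subunits that stood higher together. Each line gives the 250 bases before the annotated start, 5′ to 3′ on the gene's own strand, from RefSeq (GRCm38.p6): chr13:58610878-58611127 on the minus strand for Slc28a3, chr7:102441445-102441694 on the plus strand for Rrm1 and chr12:24708004-24708253 on the plus strand for Rrm2. Capitals mark CCAAT, the letters bound by NF-Y, or its reverse complement, and, in Rrm2, AACCGGTT, the letters bound by Grhl factors.
Slc28a3: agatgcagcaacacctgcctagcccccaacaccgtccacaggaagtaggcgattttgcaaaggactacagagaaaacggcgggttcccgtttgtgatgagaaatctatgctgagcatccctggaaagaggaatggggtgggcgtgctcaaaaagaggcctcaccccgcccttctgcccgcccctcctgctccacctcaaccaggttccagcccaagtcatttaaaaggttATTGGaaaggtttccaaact
Rrm1: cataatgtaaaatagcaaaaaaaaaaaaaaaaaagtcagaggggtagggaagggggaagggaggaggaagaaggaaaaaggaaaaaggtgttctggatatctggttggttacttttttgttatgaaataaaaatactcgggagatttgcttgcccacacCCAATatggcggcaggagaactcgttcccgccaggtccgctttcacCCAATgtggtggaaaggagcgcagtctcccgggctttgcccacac
Rrm2: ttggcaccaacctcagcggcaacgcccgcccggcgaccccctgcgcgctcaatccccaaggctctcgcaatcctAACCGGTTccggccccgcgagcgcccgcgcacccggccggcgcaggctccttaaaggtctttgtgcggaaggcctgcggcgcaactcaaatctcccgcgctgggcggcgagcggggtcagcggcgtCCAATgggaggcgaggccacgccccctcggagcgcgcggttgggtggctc

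CCAAT lay on the plus strand of Rrm1 at 91 to 87 and at 45 to 41 bases before the start and in Rrm2 at 50 to 46 bases before it, and its reverse complement lay in Slc28a3 at 20 to 16 bases before the start. AACCGGTT lay in Rrm2 at 176 to 169 bases before the start. No match overlapped another. Each motif was searched on both strands of 32851 upstream windows of the same length, and CCAAT was found in 33.8% of them and AACCGGTT in 0.116%. RefSeq gave 17 windows for the 10 genes, 8 of them for Slc29a1, which has several annotated starts; 6 held CCAAT and 1 held AACCGGTT. The E2F letters TTTCCCGC were in 0.895% and TTTGGCGC in 0.417% of all windows, and in 0 of the 17. TATAAA, the letters of the TATA box, was in 12.4% of all windows and in 0 of the 17. CTTTGAT, the letters bound by the TCF factors of the Wnt pathway that Apc restrains, was in 3.21% of all windows and in 0 of the 17. These are matches of letters in a window and say nothing of binding.

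The other concentrative transporters showed no such pattern. Slc28a1, which prefers pyrimidine nucleosides, had 5.99 and 5.57 in normal ductal replicates 1 and 2 and 5.59 in each of the PDAC replicates. Normal ductal replicate 1 was the high array, replicate 2 lay below all PDAC cultures, and the difference was -0.19 (SE 0.14). Without normal ductal replicate 1 it was 0.03 and without replicate 2 it was -0.40. Slc28a2, which prefers purine nucleosides, had 3.16 and 3.26 on the normal ductal arrays against 3.16, 3.09 and 3.16 on the PDAC arrays. These signals lay near or below the median of the olfactory receptor genes, 3 of the 5 arrays held exactly 1 value, and the difference was -0.07 (SE 0.04). For the Slc28 family as a whole, a signal well above the low end was thus seen for Slc28a3 in the normal ductal cultures and for no Slc28 gene in the PDAC cultures, except that Slc28a1 stayed slightly above the 95th percentile of the olfactory receptor genes on all 5 arrays.

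Slc29a1, the main equilibrative transporter of the plasma membrane and the carrier most often linked to gemcitabine uptake, stood higher in the tumour cultures. Its signal was 8.76 and 8.77 in normal ductal replicates 1 and 2, against 10.41, 10.20 and 9.82 for PDAC replicates 1, 2 and 3. The normal ductal arrays were nearly equal, with a range of 0.01, whereas the PDAC arrays spread over 0.59. The means of 8.76 ± 0.01 (SD, n = 2) and 10.14 ± 0.30 (SD, n = 3) gave a difference of 1.38 (SE 0.21), a 2.60-fold higher signal. The nearest arrays of the groups were 1.05 apart. The alternatives gave between 1.25 and 1.54. The gene lies on chromosome 17 from 45585200 to 45599618.

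Slc29a1 and Slc28a3 thus differed between the groups in opposite directions. Among the PDAC cultures the Slc28a3 signals were too near the low end to be ordered. The epithelial marker mean was lower in all PDAC cultures than in the normal ductal ones, as Slc28a3 was, and its part in either gene was not tested.

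Slc29a2, an equilibrative transporter that also carries nucleobases, had 7.65 and 7.48 on the normal ductal arrays against 7.48, 8.00 and 7.09 on the PDAC arrays. PDAC replicate 2 was the highest and PDAC replicate 3 the lowest of all arrays, so the normal ductal values lay within the PDAC range. The difference was -0.04 (SE 0.31), and its sign was kept in 5 of 9 alternatives. Slc29a3, a transporter of lysosomal and other inner membranes, had 9.16 and 9.00 on the normal ductal arrays against 8.64, 8.58 and 8.44 on the PDAC arrays. All PDAC arrays were lower, by a small amount relative to the change of Slc28a3: the difference was -0.53 (SE 0.11), a 1.44-fold lower signal, with a gap of 0.36 between the groups. In GRCm38 Slc28a1 is annotated on chromosome 7 from 81113269 to 81170416, Slc28a2 on chromosome 2 from 122426357 to 122461152, Slc29a2 on chromosome 19 from 5019057 to 5031972 and Slc29a3 on chromosome 10 from 60712072 to 60752849.

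**Figure D2:**
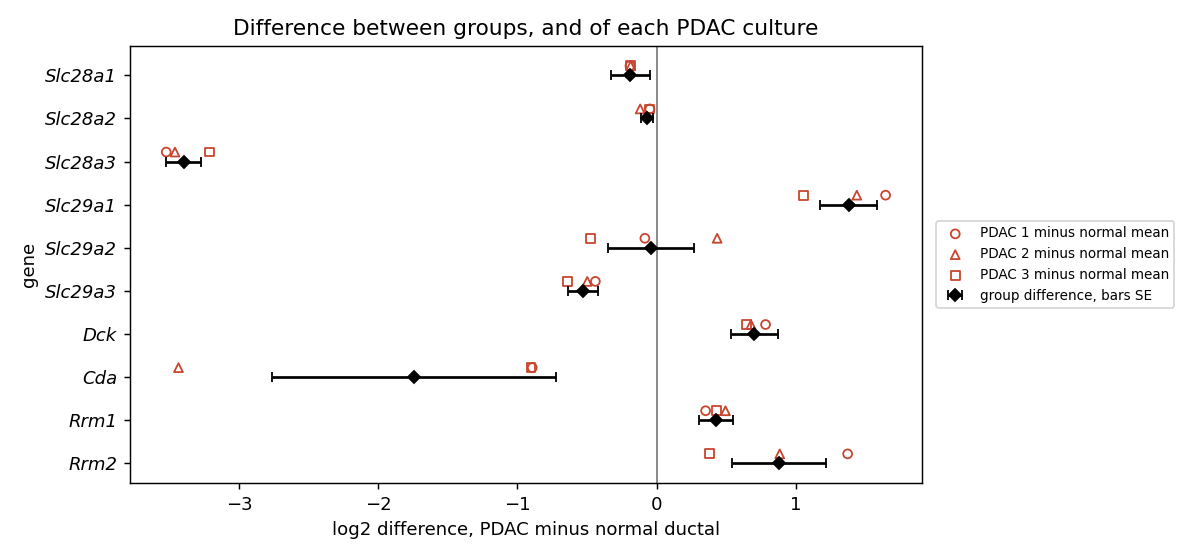
Log2 difference from normal ductal cultures (horizontal axis) for each gene (vertical axis); black diamonds are PDAC minus normal ductal means with bars of 1 SE from the limma fit, and open red symbols are the single PDAC cultures minus the normal ductal mean. Slc28a3 lies near -3.4 in all 3 cultures, Slc29a1 between 1.06 and 1.65, and Cda at -3.44 in PDAC replicate 2 against about -0.9 in the other two.

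Dck, the kinase whose phosphorylation step gemcitabine needs to stay in the cell and act, had 8.16 and 7.70 in normal ductal replicates 1 and 2, against 8.72, 8.61 and 8.58 for PDAC replicates 1, 2 and 3. The PDAC cultures were close to each other, with a range of 0.14, and all lay above the normal ductal cultures, which were 0.46 apart. The means were 7.93 ± 0.32 (SD, n = 2) and 8.64 ± 0.07 (SD, n = 3), a difference of 0.70 (SE 0.17) or a 1.63-fold higher signal. It was 0.93 without normal ductal replicate 1 and 0.47 without replicate 2. Replicate 2 was the normal ductal culture with the higher marker signals of fibroblast, acinar, islet and endothelial cells. Their part in the Dck signal was not tested. Dck lies on chromosome 5 from 88765013 to 88783277.

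Cda, which deaminates cytidine, deoxycytidine and gemcitabine, was the member that varied most within each group. Its signal was 9.21 and 8.16 in normal ductal replicates 1 and 2, against 7.79, 5.25 and 7.78 for PDAC replicates 1, 2 and 3. The groups did not overlap, but the nearest arrays were 0.37 apart, less than the 1.05 between the normal ductal cultures. PDAC replicate 2 stood alone, close to the 95th percentile of the olfactory receptor genes on that array (5.13), while PDAC replicates 1 and 3 were nearly equal. The means of 8.69 ± 0.74 (SD, n = 2) and 6.94 ± 1.47 (SD, n = 3) gave a difference of -1.74 (SE 1.02). Without PDAC replicate 2 the difference was -0.90, and without normal ductal replicate 2 it was -2.27. The gene lies on chromosome 4 from 138338528 to 138368311. PDAC replicate 2 lay between the other PDAC cultures for Slc29a1, Slc29a3, Dck and Rrm2. It was the highest of them for Slc29a2 (8.00) and Rrm1 (11.20) and the lowest for Slc28a2 (3.09), at the low end of the scale.

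Both subunits of ribonucleotide reductase stood higher in the PDAC cultures. Rrm1, the large subunit that holds the catalytic site, had 10.55 and 10.86 in normal ductal replicates 1 and 2, against 11.06, 11.20 and 11.14 for PDAC replicates 1, 2 and 3. All PDAC arrays were above both normal ductal arrays, by at least 0.20, and the difference was 0.43 (SE 0.12), a 1.34-fold higher signal. It was 0.27 without normal ductal replicate 1 and 0.58 without replicate 2. Rrm2, the small subunit that carries the radical and is made in S phase, had 10.16 and 10.40 on the normal ductal arrays against 11.65, 11.17 and 10.66 on the PDAC arrays. PDAC replicate 1 was the highest and PDAC replicate 3 lay only 0.26 above the higher normal ductal array. The means were 10.28 ± 0.17 (SD, n = 2) and 11.16 ± 0.50 (SD, n = 3), a difference of 0.88 (SE 0.34) or a 1.84-fold higher signal.

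Markers of S phase were compared in the same cultures. The mean of 21 S phase markers, among them the Mcm helicase subunits and Pcna, was 8.89 and 8.77 on the normal ductal arrays against 9.45, 9.59 and 9.40 on the PDAC arrays, and 19 of the 21 were separated between the groups with PDAC higher, against 13.6% of all genes. None of the 21 was called by limma after Benjamini-Hochberg adjustment, which called 0.00502% of all genes as higher and 0.0502% as lower in PDAC. At an unadjusted limma p under 0.05, 15 had PDAC higher, against 6.5% of all genes. The PDAC cultures did not keep 1 order over these measures: Rrm2 was highest in replicate 1, while Rrm1 and the S phase mean were highest in replicate 2. The part of the cell cycle in the Rrm1 and Rrm2 signals was not tested. The p53-inducible small subunit Rrm2b, which serves resting cells and DNA repair and was named after its values were seen, had 6.93 and 6.80 on the normal ductal arrays against 6.80, 6.83 and 6.67 on the PDAC arrays, a difference of -0.10 (SE 0.09) with overlapping groups.

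The genes whose profile over the 5 arrays was most like that of Slc28a3 were Dcdc2a, Ap1m2, Bex4, Rab25 and Prss22, in that order. Likeness was the root mean square difference between log2 profiles, each centred on its own mean, and it ran from 0.12 for Dcdc2a to 0.27 for Prss22. Dcdc2a, a doublecortin-domain protein of cilia, had 8.80 and 8.92 on the normal ductal arrays against 5.48, 5.57 and 5.66 on the PDAC arrays. Ap1m2, the clathrin adaptor subunit of epithelial cells, had 8.59 and 8.37 on the normal ductal arrays against 4.99, 4.95 and 5.62 on the PDAC arrays. The high signal of both in the normal ductal cultures and the low one in all PDAC cultures follow from this choice by likeness. As the PDAC signals of Slc28a3 were at the low end, the order of the 5 genes is only a description. Rab25, a small GTPase of epithelial recycling endosomes, had a difference of -3.64 (SE 0.33), and Prss22, a secreted serine protease, one of -3.06 (SE 0.31).

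**Figure D3:**
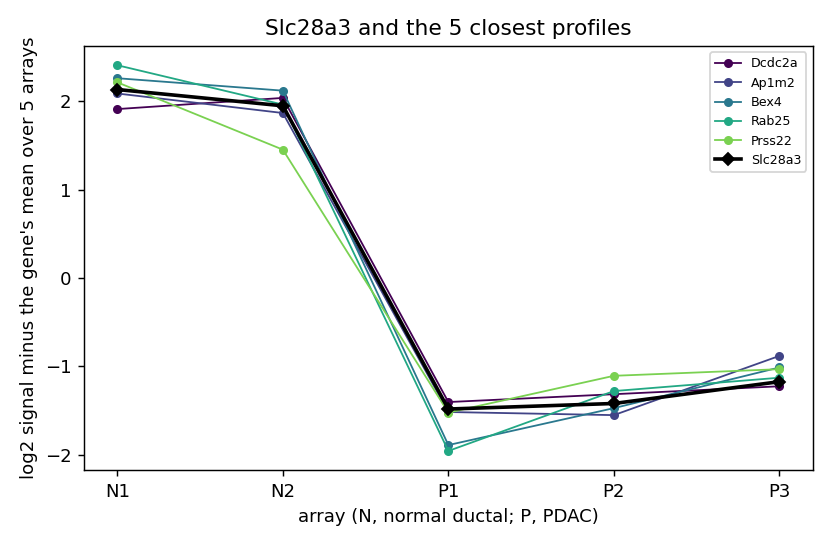
Log2 signal minus each gene's own mean over the 5 arrays (vertical axis) by array (horizontal axis; N1 and N2 normal ductal, P1 to P3 PDAC) for Slc28a3 (black) and the 5 genes with the closest profile. All 6 lines are lower at P1 than at N2; the root mean square difference from Slc28a3 is 0.12 for Dcdc2a and 0.27 for Prss22.

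Distances are not compared between Slc28a3, Cda and Rrm2, because this measure grows with how far a gene varies between arrays. For Cda the nearest was Raet1d, a ligand of the immune receptor NKG2D, at a root mean square difference of 0.43. Gcnt2 (0.46) and Bhlhe40 (0.48), a transcription factor, followed. Raet1d shared the low point in PDAC replicate 2, with 8.21 and 7.96 on the normal ductal arrays against 7.70, 5.25 and 6.84 on the PDAC arrays. For Rrm2 the nearest were Fkbp9 (0.04), a protein-folding enzyme of the endoplasmic reticulum, Dubr (0.08), a long non-coding RNA, and Pole2 (0.09), a subunit of DNA polymerase epsilon. Pole2 had 7.54 and 7.71 on the normal ductal arrays against 8.92, 8.71 and 8.06 on the PDAC arrays, with the same order of cultures as Rrm2. The low point shared by Raet1d and Cda and the order shared by Pole2 and Rrm2 follow from this choice by likeness.

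The comparison was then extended to 91 measured genes in 5 lists that surround these members: kinases of nucleoside salvage, enzymes of nucleoside and nucleotide breakdown, enzymes of de novo synthesis, export pumps and other carriers, and the response to stalled replication forks. The limma test with Benjamini-Hochberg adjustment over all genes called 0 of the 91, with adjusted p-values from 0.135 to 1. Over all genes it called 0.00502% as higher and 0.0502% as lower in PDAC. With an unadjusted p under 0.05 there were 15 of the 91 with PDAC higher and 6 with PDAC lower, against 6.5% and 6.86% of all genes. The count of 15 was 6 without normal ductal replicate 2, 9 without PDAC replicate 1 and 24 without PDAC replicate 3.

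Leaving out a normal ductal culture gave calls that the full set did not give, with the single remaining normal ductal array assumed to vary like the PDAC arrays. Without replicate 2, limma called Abcc4 (-2.47, adjusted p = 0.0422), Slc29a4 (-2.54, adjusted p = 0.0494), Dpyd and Nt5c1b as lower and Rpa3 (0.98, adjusted p = 0.0316) as higher. Without replicate 1 it called Nt5c1b and Dpys as higher. The calls of Nt5c1b, Dpyd and Dpys rest on PDAC arrays without spread: in each of these genes the 3 PDAC arrays held exactly the same value (3.53, 3.97 and 4.74), below the 95th percentile of the olfactory receptor genes. Nt5c1b also changed direction between these fits, with differences of 0.08 and -0.16. For the other genes of the lists no fit gave a call.

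**Figure D4:**
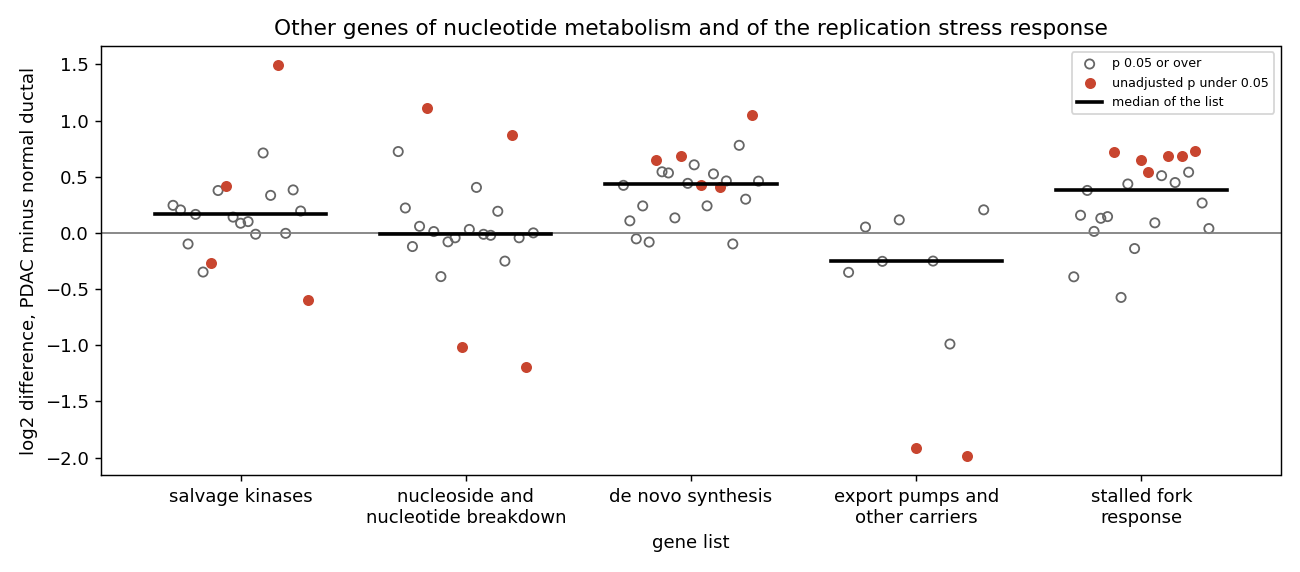
Log2 difference, PDAC minus normal ductal (vertical axis), of the 91 genes in 5 lists (horizontal axis), with a black line at each list's median; filled points have an unadjusted limma p under 0.05 and open points do not. The medians are 0.16, -0.01, 0.43, -0.25 and 0.38 from left to right, and no gene passed the adjusted threshold.

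Among the export pumps and other carriers (9 measured, median difference -0.25, against 0.01 over all genes), an unadjusted p under 0.05 was reached by 0 with PDAC higher and 2 with PDAC lower. Slc29a4, the equilibrative family member that carries monoamines and adenosine, had 8.19 and 7.07 on the normal ductal arrays against 5.73, 5.41 and 5.80 on the PDAC arrays, a difference of -1.98 (SE 0.39, adjusted p = 0.214). Abcc4, a pump that exports cyclic nucleotides and nucleotide drugs, had 11.07 and 9.96 on the normal ductal arrays against 8.59, 8.79 and 8.44 on the PDAC arrays, a difference of -1.91 (SE 0.39, adjusted p = 0.218). In both genes all PDAC arrays were more than 1.1 below the lower normal ductal array. That array was normal ductal replicate 2, which held more signal of other cell types' markers than replicate 1. Abcc5, another pump linked to gemcitabine and named after its values were seen, overlapped between the groups (-0.25, SE 0.30).

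Among the salvage kinases (19 measured, median difference 0.16), an unadjusted p under 0.05 was reached by 2 with PDAC higher and 2 with PDAC lower. These became 1 and 1 without either normal ductal culture, 1 and 0 without PDAC replicate 1 and 2 and 3 without PDAC replicate 2, and 3 and 2 without PDAC replicate 3. Tk1, which phosphorylates thymidine in dividing cells, had a difference of 1.49 (SE 0.13, adjusted p = 0.135), with 8.43 and 8.50 on the normal ductal arrays against 9.81, 9.90 and 10.15 on the PDAC arrays. Its PDAC cultures ran in the order opposite to that of Rrm2. Uckl1, a uridine-cytidine kinase-like protein, had -0.60 (SE 0.14, adjusted p = 0.258). The kinases that add the later phosphates to gemcitabine are named after their values were seen. Cmpk1, which makes the diphosphate, had -0.35 (SE 0.13), with all PDAC arrays lower by a gap of 0.10. Of the Nme kinases, which make triphosphates, Nme4 had 0.71 (SE 0.28) with all PDAC arrays higher, while Nme1 (0.09, SE 0.10), Nme2 (0.10, SE 0.11), Nme3 (-0.01, SE 0.45) and Nme6 (0.33, SE 0.35) overlapped between the groups.

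Among the enzymes of breakdown (20 measured, median difference -0.01), that p was reached by 2 with PDAC higher and 2 with PDAC lower. The balance turned with the normal ductal culture left out: 4 higher and 1 lower without replicate 1, and 1 higher and 4 lower without replicate 2. Nt5c2, a cytosolic nucleotidase, had 10.18 and 10.13 on the normal ductal arrays against 8.89, 9.17 and 9.36 on the PDAC arrays (-1.02, SE 0.17, adjusted p = 0.186). Dut, which removes dUTP, had 8.22 and 8.26 against 9.47, 9.01 and 9.57 (1.11, SE 0.21, adjusted p = 0.208). The others under that threshold, named after their values were seen, were Upp1, a uridine phosphorylase (-1.19, SE 0.26, adjusted p = 0.230), and Samhd1, which hydrolyses deoxynucleoside triphosphates (0.87, SE 0.19, adjusted p = 0.238). The groups did not overlap for any of these 4.

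Among the enzymes of de novo synthesis (22 measured, median difference 0.43), that p was reached by 5 with PDAC higher and 0 with PDAC lower, and 12 were separated between the groups with PDAC higher and 0 with PDAC lower, where all genes gave 13.6% and 12.8%. The same counts were 4 and 3 for the salvage kinases, 4 and 2 for the breakdown enzymes, 1 and 3 for the export pumps and other carriers and 11 and 2 for the stalled fork response. The count of 5 was 2 without either normal ductal culture or without PDAC replicate 1, and 12 without PDAC replicate 3. Ctps2, a CTP synthase, had 8.07 and 8.00 on the normal ductal arrays against 8.56, 8.75 and 8.75 on the PDAC arrays (0.65, SE 0.10, adjusted p = 0.173). Tyms, the thymidylate synthase, had 8.48 and 9.01 against 10.01, 9.72 and 9.67 (1.05, SE 0.22, adjusted p = 0.223), with the same order of PDAC cultures as Rrm2. The 22 genes averaged 9.25 and 9.19 on the normal ductal arrays against 9.70, 9.78 and 9.37 on the PDAC arrays, lowest of the PDAC cultures in replicate 3.

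Among the genes of the stalled fork response (21 measured, median difference 0.38), that p was reached by 6 with PDAC higher and 0 with PDAC lower, and the 6 became 2 without normal ductal replicate 2, 3 without PDAC replicate 1 and 1 without PDAC replicate 2. Rpa1, a subunit of the protein that coats single-stranded DNA, had 9.13 and 9.23 on the normal ductal arrays against 9.73, 10.13 and 9.75 on the PDAC arrays (0.69, SE 0.16, adjusted p = 0.251). Parp1, which marks DNA breaks with poly(ADP-ribose), had 0.65 (SE 0.16, adjusted p = 0.262). Of the checkpoint kinases in the list, named after their values were seen, Chek1 (0.14, SE 0.20) and Wee1 (0.04, SE 0.11) overlapped between the groups, and Atr (-0.39, SE 0.27) was lower on all PDAC arrays by a gap of 0.06.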

How the data were processed

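The authors deposited log2 signals for 35556 probe sets on 5 arrays (a scale taken from their range). Transcriptome Analysis Console 1.0.0.234 and mm10 are named per the submitters' processing notes; how background, normalization and probe summary were done was not given in the sources used. Probe sets with 1 symbol in the platform annotation (21789; 1621 had several, 12146 none) were kept, 21698 matched a GRCm38.p6 gene by Entrez identifier, and the probe set with the highest mean stood for each of 19938 genes.

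PDAC and normal ductal cultures were compared with limma 3.58.1 in R 4.3.3 (lmFit, eBayes with an intensity trend, both directions, Benjamini-Hochberg adjustment over all genes, threshold 0.05), checked on simulated data. Members and lists were chosen with earlier results of these data known, and members get no p. Named are all 10 members, in each list the genes called or else the 2 with the smallest p, and the closest profiles of Slc28a3 (5 genes), Cda and Rrm2 (3 each). Of 96 listed pathway genes, 91 were measured and the others not analysed here. Alternatives were other scalings, all probe sets, a filter, variance models, the replicate block and each culture left out. Tables were made with pandas 2.3.3 and numpy 2.4.6.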

Additional observations from a re-analysis of the deposited data

How the results depend on the processing

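The 11 genes called over all genes (1 higher, 10 lower) became 41 under quantile normalization (9 higher, 32 lower), 33 with arrays at a common median (10 higher, 23 lower), 3 with array weights and 0 with the replicate number as a block (1104 higher and 1110 lower at an unadjusted limma p under 0.05). With 1 culture left out they ran from 0, without any of the PDAC replicates, to 1287 without normal ductal replicate 1, and 990 were called without normal ductal replicate 2. For the 91 pathway genes the count stayed at 0 in every alternative that kept all cultures, the replicate block included, and ran from 0 to 5 with 1 culture left out. The numbers shared by the groups are not said to pair cultures, and the deviations of replicates 1 from their group means correlated at -0.18. The causes were not tested.

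The count of members whose groups did not overlap was 7 under both scalings; leaving out a culture cannot make groups overlap. Over 9 alternatives the sign was kept in 9 for Slc28a3, Slc29a1, Slc29a3, Dck, Cda, Rrm1 and Rrm2, in 8 for Slc28a1 and Slc28a2 and in 5 for Slc29a2. In the 7 members without overlap, neither leaving out a culture nor the replicate block could turn the sign. The mean of all probe sets could change no member, as each had exactly 1 probe set. For these 7 only the scalings could have turned it. Of the 10 named pathway genes, Abcc4 and Slc29a4 passed the threshold in 1 of 12 alternatives each, without normal ductal replicate 2, and the others in none. Signals near those of the olfactory receptor genes limit Slc28a2 on all arrays, Slc28a3 in PDAC cultures and Cda in PDAC replicate 2.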
